A study of Homo sapiens with 14 samples.

Results

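The angiogenic growth factors examined here are the 7 secreted proteins VEGFA, VEGFB, VEGFC, PGF, ANGPTL4, ESM1 and FGF2, whose messenger RNA was measured by RNA sequencing in drug-treated cancer cell lines. They were picked by gene symbol, as a set chosen with earlier results of these data known, and each of the 7 symbols matched 1 of the 60683 Ensembl gene identifiers in the count tables. The study asked which drug treatments push cancer cells into senescence, a lasting growth arrest in which cells secrete many factors. The comparisons below ask how the RNA of these growth factors moved under those treatments.

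A549, a lung cancer line, was analysed in 5 groups and SUM159, a triple-negative breast cancer line, in 2 groups, with 2 libraries each and 14 in all. A549 cells were left untreated, or received 2 µM palbociclib, an inhibitor of the cell cycle kinases CDK4 and CDK6, 0.5 µM indisulam, which makes the cell degrade the splicing factor RBM39, or both drugs (the combination), in each case for 10 days. A549 and SUM159 cells also received 0.5 µM PF-06873600, which blocks the kinases CDK2, CDK4 and CDK6, for 7 days. The collection time of untreated cells is not given in the sources used here. A549 was grown in RPMI medium, and SUM159 in DMEM/F12 with added insulin and hydrocortisone. The series calls the 2 libraries of a group technical duplicates, so p-values here measure the spread between these libraries, which may be technical.

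Angiogenesis, the growth of new blood vessels, is driven by ligands that tumor cells release and that endothelial cells sense. VEGFA is the main ligand of the receptor KDR, VEGFB and PGF bind FLT1, and VEGFC acts mainly on FLT4 to promote lymphatic vessels. FGF2 signals through FGF receptors, ANGPTL4 is a secreted inhibitor of lipoprotein lipase that PPAR receptors and low oxygen induce, and ESM1 (endocan) is a proteoglycan best known from activated endothelial cells.

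Counts on genes ran from 13060374 to 21149256 per library. A floor of 3 counts corresponds to 0.142 to 0.230 CPM (counts scaled to a library total of 1e+06 counts on genes), and floors and counting intervals cover counting error only. In A549 all 5 genes typical of the line exceeded 1 CPM, and 7 endothelial markers summed to 1.11 to 2.64 CPM. Those 5 genes summed to 10973.5 to 15433 CPM in A549 and to 440 to 758 CPM in SUM159, where 2 of them stayed below 1 CPM. In SUM159 the mesenchymal genes VIM, ZEB1 and AXL summed to 4030 to 5057 CPM, against 708 to 1980 CPM in A549. Of 3 genes low or absent in triple-negative breast cancer, ESR1 averaged 0.182 CPM and PGR 0 CPM in untreated SUM159. Both averaged 0 CPM in untreated A549. The remaining gene, ERBB2, averaged 120 CPM in untreated SUM159 and 155 CPM in untreated A549. The proliferation gene MKI67 ran from 172 to 182 CPM in untreated A549 and from 29.3 to 30.0 CPM in the combination. Levels are RNA in bulk culture, where fewer cells that express a gene and less RNA of it per cell cannot be told apart.

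**Figure D1:**
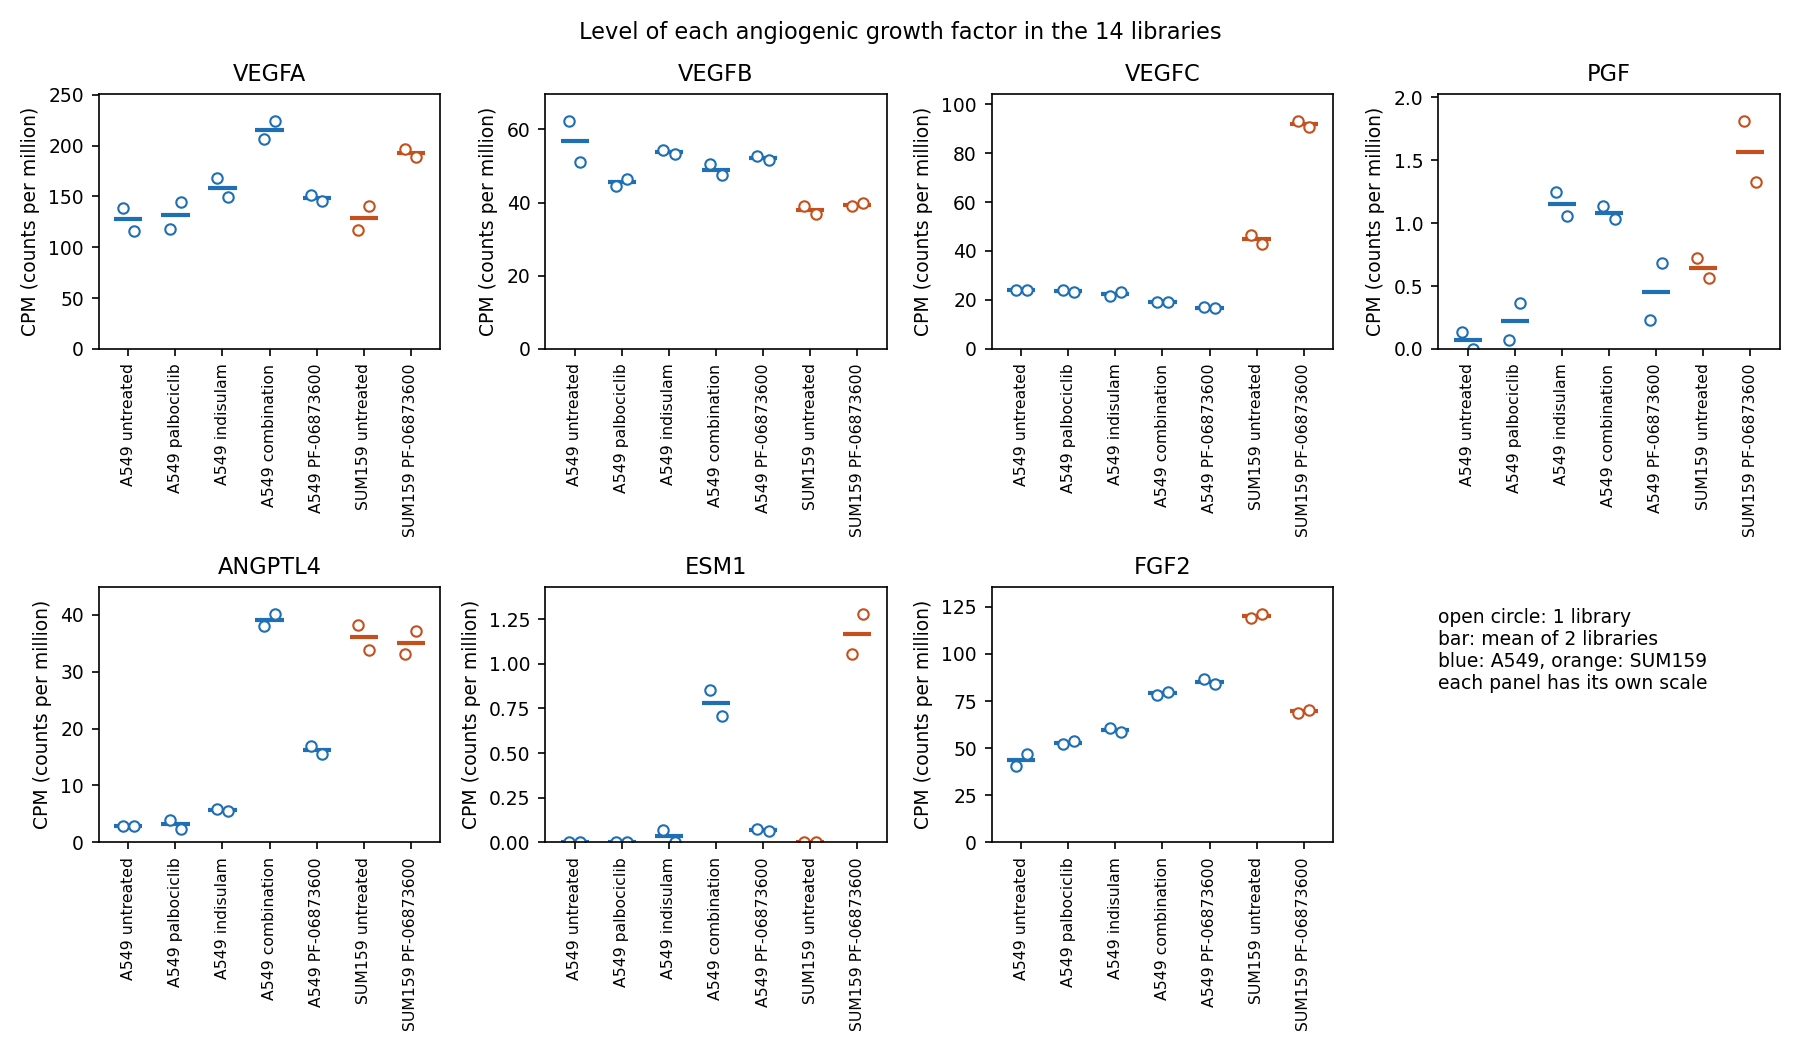
Level of each growth factor (vertical axis, CPM, each panel on its own linear scale from 0) in the 7 groups, with an open circle for each library and a bar for the mean of 2. ANGPTL4 stood at 38.0 and 40.0 CPM in the A549 combination against 2.86 and 2.93 in untreated A549, while VEGFC was highest and FGF2 fell in SUM159 given PF-06873600.

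ANGPTL4 showed the widest change among the members that had more than 3 counts in every library. In A549 its RNA rose 13.5-fold with the combination and 5.55-fold with PF-06873600, while in SUM159, where the untreated level overlapped that of the A549 combination, no change was detected. FGF2 and VEGFC moved in opposite directions in the 2 lines. FGF2 rose in A549 and fell in SUM159 under PF-06873600, and VEGFC fell in A549 and rose in SUM159. VEGFA rose in the combination and in SUM159, VEGFB fell slightly with palbociclib and the combination, and the low-level genes PGF and ESM1 had more counts in several treated groups.

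Members passing the edgeR quasi-likelihood test (Benjamini-Hochberg adjusted p under 0.05 over all genes) were counted against the share of all tested genes that passed. PGF and ESM1 passed the filter on low counts only through groups where they were high, so they are left out of these counts, which cover the other 5 members, and their values stand apart. Each treated A549 group was set against the same 2 untreated libraries, so those comparisons are not independent. With palbociclib alone 1 member was higher (FGF2) and 1 lower (VEGFB), where 8.30% of 15780 genes were called higher and 7.40% lower. With indisulam alone 3 were higher (VEGFA, ANGPTL4 and FGF2) and 0 lower, where 28.0% of genes were higher and 17.5% lower. Of all calls in that comparison, 61.6% were higher with scaling by total counts and 50.4% with TMM factors. In the combination 3 were higher (VEGFA, ANGPTL4 and FGF2) and 2 lower (VEGFB and VEGFC), where 35.1% were higher and 30.0% lower. Against palbociclib alone the combination had the same 3 higher and 1 lower, VEGFC (33.5% and 26.9% of genes), and against indisulam alone the same 3 higher and 0 lower (22.0% and 23.9%).

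ANGPTL4 (ENSG00000167772) lies on chromosome 19 of hg38, from 8363289 to 8374370 on the plus strand, and no other GENCODE gene overlaps it. Untreated A549 libraries held 42 and 44 counts (2.86 and 2.93 CPM), and palbociclib libraries held 54 and 40 (4.01 and 2.44 CPM). Indisulam gave 5.87 and 5.48 CPM, and the combination 38.0 and 40.0 CPM. Palbociclib libraries straddled the untreated ones, indisulam libraries stood above both, and the combination stood far above every other A549 group. Against untreated cells the log2 fold change was 0.13 (SE 0.22, adjusted p = 0.766) with palbociclib. It was 0.97 (SE 0.20, adjusted p = 0.00118) with indisulam and 3.75 (SE 0.15, adjusted p = 3.06e-11) with both. The combination exceeded indisulam alone by 2.78 on the log2 scale (SE 0.14, adjusted p = 8.27e-10) and palbociclib alone by 3.62 (SE 0.15, adjusted p = 6.07e-11).

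The upstream sequences of ANGPTL4 and VEGFC, the members that rose most in A549 and in SUM159 among those with more than 3 counts in every library, are shown so that the motifs named below can be read in them. Each window holds the 250 bases before a RefSeq gene start on build GRCh38.p14, written 5′ to 3′ on the strand of the gene. The ANGPTL4 window is chr19:8363905-8364154 on the plus strand and the VEGFC window chr4:176792923-176793172 on the minus strand. The ANGPTL4 window lies inside the GENCODE span of the gene, which starts at 8363289, and holds 0 annotated exon bases. Capitals mark letters that match ACGTG or GCGTG, the core of the hypoxia response element, GGGCGG, the GC box, or TGANTCA, the AP-1 site, on either strand.
ANGPTL4: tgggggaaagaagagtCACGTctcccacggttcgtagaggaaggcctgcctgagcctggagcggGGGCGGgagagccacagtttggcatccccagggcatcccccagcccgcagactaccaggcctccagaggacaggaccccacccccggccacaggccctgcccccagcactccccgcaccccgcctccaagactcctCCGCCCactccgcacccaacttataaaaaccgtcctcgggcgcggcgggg
VEGFC: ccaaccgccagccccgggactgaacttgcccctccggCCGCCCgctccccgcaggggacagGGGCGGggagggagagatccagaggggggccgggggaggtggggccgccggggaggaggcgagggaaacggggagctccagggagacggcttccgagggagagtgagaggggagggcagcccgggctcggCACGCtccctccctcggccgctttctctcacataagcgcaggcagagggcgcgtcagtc
The ANGPTL4 window holds 1 ACGTG match, read on the other strand as CACGT and starting 234 bases before the gene start, and 2 GC boxes. The VEGFC window holds 0 ACGTG matches, 1 GCGTG match 59 bases before the start and 2 GC boxes. Of the 6 members with a window in the RefSeq table (VEGFA had none), 2 had ACGTG (ANGPTL4 and ESM1), 5 had GCGTG, 5 had GGGCGG and 0 had TGANTCA. PGF had 2 windows, of which 1 held GCGTG, so these counts are per member and the shares below per promoter. GENCODE exons of the gene itself cover all 250 bases of the ESM1 window, 149 of the FGF2 window and 29 of 1 PGF window. Over 35116 promoters of the same length, 18.5% held ACGTG, 32.2% GCGTG, 42.6% GGGCGG and 6.57% TGANTCA, and 43.2% held either hypoxia core. These matches describe the letters of the window, and binding was not measured.

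An interaction term next compared the combination with what both single-drug log2 changes add up to. ANGPTL4 exceeded that sum by 2.65 (SE 0.27, adjusted p = 5.65e-06), a 6.29-fold excess. The single drugs together summed to 1.10, and the combination reached 3.75. VEGFA exceeded its sum of 0.36 by 0.40 (SE 0.14, adjusted p = 0.0492), which sits at the threshold. FGF2 reached 0.86 against a sum of 0.74, a difference of 0.13 (SE 0.10, adjusted p = 0.423), and the differences of VEGFB and VEGFC did not pass. Without the second untreated library that of VEGFB passed (0.32, adjusted p = 0.0178). Of the 5 members, 2 exceeded the sum and 0 fell short of it, where 10.7% of all genes exceeded it and 14.5% fell short. With the replicate number as a block VEGFA no longer passed (adjusted p = 0.0622). The same call was lost without the first untreated (0.26, adjusted p = 0.113), the first palbociclib (0.26, adjusted p = 0.206), the second indisulam (0.31, adjusted p = 0.190), the first combination (0.45, adjusted p = 0.0738) or the second combination library (0.34, adjusted p = 0.186).

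**Figure D2:**
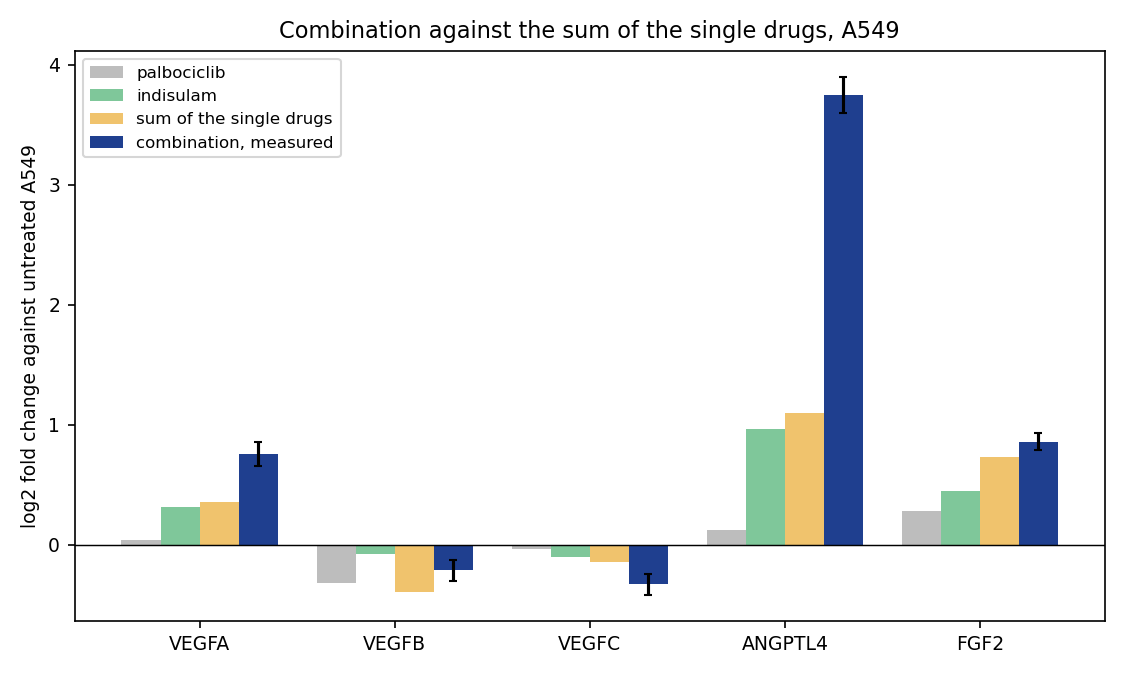
Log2 fold change against untreated A549 (vertical axis) of 5 growth factors with palbociclib, with indisulam, for the sum of those 2 values, and as measured in the combination, with error bars of 1 SE on the last. The combination bar of ANGPTL4 reaches 3.75 against a sum of 1.10, and that of FGF2 0.86 against 0.74.

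VEGFA (ENSG00000112715, chromosome 6, 43770184 to 43786487, plus strand) was high in every library, from 1590 to 3999 counts. The antisense lncRNA ENSG00000272114, whose exon shares 188 bases with it, held 3 to 13 counts. Untreated A549 gave 139 and 116 CPM, palbociclib 118 and 144 CPM and indisulam 168 and 149 CPM. The combination gave 207 and 224 CPM, above all other A549 libraries, and palbociclib overlapped untreated cells. VEGFA rose by a log2 fold change of 0.76 (SE 0.10, adjusted p = 8.63e-06), or 1.69-fold, in the combination. With indisulam the value was 0.32 (SE 0.10, adjusted p = 0.0174), and with palbociclib 0.045 (SE 0.10, adjusted p = 0.820). The indisulam call was lost with TMM factors (adjusted p = 0.0565), with DESeq2 (adjusted p = 0.0519), without the second untreated library (0.19, adjusted p = 0.101) and without the first indisulam library (0.22, adjusted p = 0.164).

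FGF2 (ENSG00000138685, chromosome 4, 122826682 to 122898236, plus strand) rose in every treated A549 group, and no group overlapped another. Untreated libraries gave 40.4 and 46.7 CPM, palbociclib 52.4 and 53.6 CPM, indisulam 60.6 and 58.7 CPM, and the combination 78.5 and 79.8 CPM. The log2 fold changes were 0.28 (SE 0.075, adjusted p = 0.0198), 0.45 (SE 0.075, adjusted p = 0.000208) and 0.86 (SE 0.074, adjusted p = 1.07e-07). The palbociclib call was lost with only these 2 groups in the model (adjusted p = 0.143), and without the first untreated (0.18, adjusted p = 0.0873), the first palbociclib (0.30, adjusted p = 0.0710) or the second palbociclib library (0.27, adjusted p = 0.122). NUDT6, a gene read from the opposite strand, shares 804 exon bases with FGF2. It held 10.9 and 10.6 CPM in untreated A549 and 5.11 and 4.83 CPM in the combination, a log2 fold change of -1.11 (SE 0.14, adjusted p = 6.28e-06). With indisulam NUDT6 fell by 0.42 (SE 0.13, adjusted p = 0.0169), and with palbociclib, where FGF2 was called higher, its log2 fold change was -0.091 (adjusted p = 0.691). Libraries were stranded per the labels, and the strand setting of the counting is not given in the sources used here.

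VEGFC (ENSG00000150630, chromosome 4, 176683538 to 176792922, minus strand) fell in the combination and passed the test under neither single drug. Untreated A549 gave 24.0 and 24.2 CPM, palbociclib 24.0 and 23.1 CPM, indisulam 21.5 and 23.3 CPM, and the combination 19.4 and 19.1 CPM. The combination libraries lay below all 6 others, a log2 fold change of -0.33 against untreated (SE 0.088, adjusted p = 0.00437). Single drugs gave -0.036 (adjusted p = 0.833) and -0.10 (adjusted p = 0.344), and the difference of -0.22 between the combination and indisulam did not pass (adjusted p = 0.0515). Against palbociclib it was -0.29 (adjusted p = 0.0103), a call lost without the first palbociclib (-0.26, adjusted p = 0.0626) or the second combination library (-0.28, adjusted p = 0.0609).

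VEGFB (ENSG00000173511, chromosome 11, 64234584 to 64239264, plus strand) had 62.3 and 51.1 CPM in untreated A549, its widest replicate gap. Palbociclib gave 44.5 and 46.6 CPM, indisulam 54.3 and 53.3 CPM, and the combination 50.5 and 47.5 CPM. Palbociclib and combination libraries lay below untreated ones, while indisulam libraries lay between them. The log2 fold change was -0.32 with palbociclib (SE 0.087, adjusted p = 0.0230) and -0.21 in the combination (SE 0.086, adjusted p = 0.0429). Both calls were lost with only the compared groups in the model (adjusted p = 0.140 and 0.119) and without the first untreated library (-0.17 and -0.063, adjusted p = 0.142 and 0.486). The palbociclib call was also lost without its first (-0.28, adjusted p = 0.134) or second library (-0.35, adjusted p = 0.0786), and the combination call without its first (-0.26, adjusted p = 0.0690) or second (-0.17, adjusted p = 0.223). Without the second untreated library VEGFB also passed as lower with indisulam (-0.21, adjusted p = 0.0258).

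PGF (ENSG00000119630, chromosome 14, 74941834 to 74955626, minus strand) was rare. Untreated A549 libraries held 2 and 0 counts, palbociclib 1 and 6, indisulam 18 and 16, and the combination 16 and 16. Indisulam and combination libraries stood clear of the others and overlapped each other. Their CPM ratio to untreated cells was 17.1 (95% counting interval 4.37 to 147) with indisulam and 16.0 (4.09 to 138) in the combination. Combination over indisulam was 0.940 (0.562 to 1.57), and combination over palbociclib 4.61 (2.00 to 12.4). No p is given for PGF, which entered the test only through groups where it was high.

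ESM1 (ENSG00000164283, chromosome 5, 54977867 to 55022671, minus strand) had 0 counts in both untreated and both palbociclib libraries and 1 and 0 with indisulam. The combination held 12 and 11 counts (0.851 and 0.708 CPM). That was at least 3.86-fold higher than untreated cells, taking 3 counts per library as the floor. No p is given for ESM1, which entered the test only through the combination. Against indisulam, with 1 count in all, the ratio was 23.0 (95% counting interval 3.73 to 946).

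**Figure D3:**
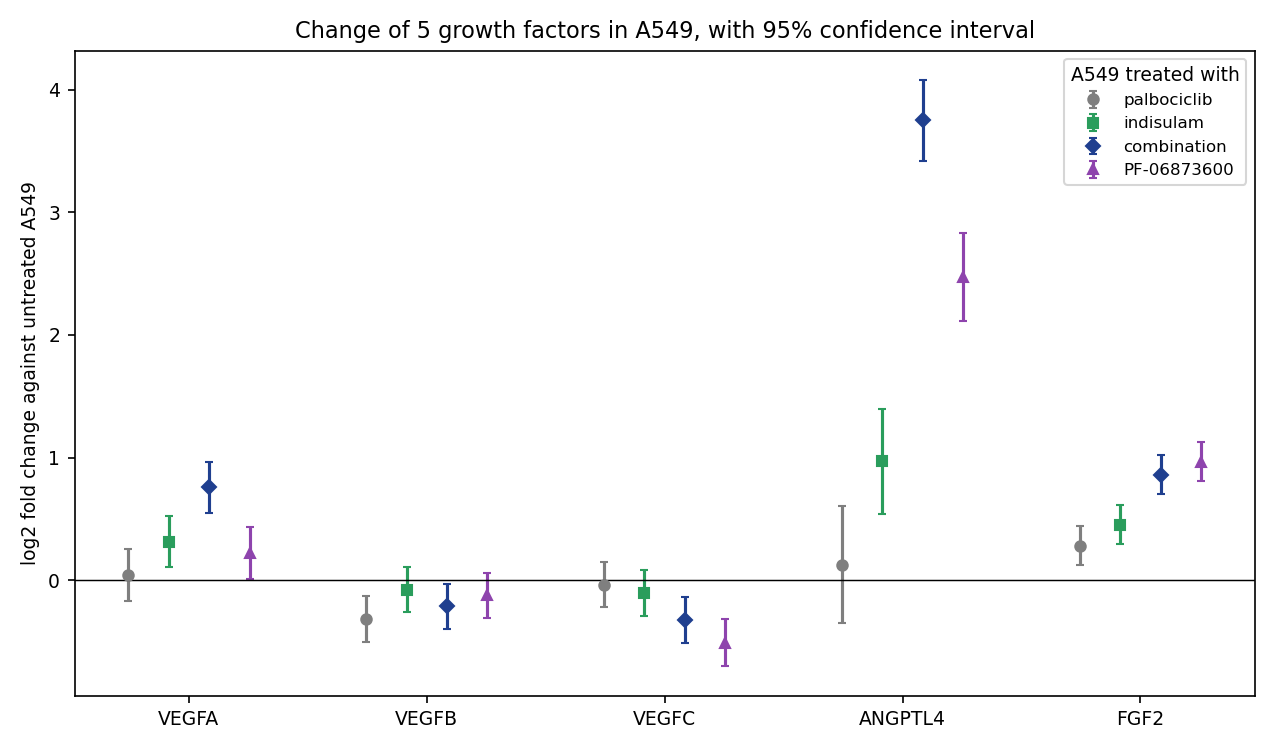
Log2 fold change against untreated A549 (vertical axis) of 5 growth factors under 4 treatments, with the 95% confidence interval of the edgeR model as bars. ANGPTL4 reached 3.75 in the combination and 2.47 with PF-06873600, FGF2 0.86 and 0.97, and VEGFC lay below 0 in both.

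PF-06873600 in A549 raised 2 of the same 5 members (ANGPTL4 and FGF2) and lowered 1 (VEGFC), where 28.5% of all genes were higher and 27.8% lower. ANGPTL4 stood at 16.8 and 15.5 CPM and FGF2 at 86.5 and 84.0 CPM. Both genes lay above untreated libraries, with log2 fold changes of 2.47 (SE 0.17, adjusted p = 1.62e-08) and 0.97 (SE 0.073, adjusted p = 4.97e-08). VEGFC at 17.2 and 16.7 CPM fell by 0.51 (SE 0.089, adjusted p = 0.000207). VEGFA at 152 and 145 CPM lay above both untreated libraries with a log2 fold change of 0.22 that did not pass (SE 0.10, adjusted p = 0.0737), and it passed with DESeq2 (adjusted p = 0.0464), without the filter on low counts (adjusted p = 0.00691) and without the first untreated library (0.35, adjusted p = 0.00395). VEGFB at 52.7 and 51.6 CPM overlapped untreated cells (log2 -0.12, adjusted p = 0.245), and was -0.26 without the second untreated library, where it passed (adjusted p = 0.00633), and 0.028 without the first (adjusted p = 0.781). PGF held 3 and 11 counts, a ratio of 7.11 (1.63 to 64.5), and ESM1 1 and 1 counts, both under the floor. The first treated PGF count is itself at the floor, and no p is given for PGF. Leaving out the second treated library took its log2 fold change from 2.68 to 1.65. NUDT6 fell here too, by 0.84 on the log2 scale (SE 0.14, adjusted p = 1e-04). This treatment lasted 7 days and the combination 10, so the values stand side by side without a test between them.

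In SUM159 the same drug raised 2 of the 5 members (VEGFA and VEGFC) and lowered 1 (FGF2), where 38.1% of 15055 genes were higher and 35.6% lower. VEGFC went from 46.6 and 42.9 CPM in untreated cells to 93.1 and 90.8 CPM, a log2 fold change of 1.04 (SE 0.062, adjusted p = 1.12e-09) or 2.05-fold. FGF2 went from 119 and 121 CPM to 68.7 and 70.2 CPM, a log2 fold change of -0.79 (SE 0.054, adjusted p = 5.04e-09), and VEGFA from 117 and 141 to 196 and 189 CPM, a log2 fold change of 0.58 (SE 0.072, adjusted p = 3.80e-06). For these 3 genes the treated libraries did not overlap the untreated ones. ANGPTL4 gave 38.2 and 33.8 CPM untreated and 33.0 and 37.1 CPM treated, with a log2 fold change of -0.035 (95% confidence interval -0.21 to 0.14, adjusted p = 0.712). NUDT6, the gene opposite FGF2, gave -0.15 here (adjusted p = 0.458). VEGFB likewise overlapped, at 39.1 and 36.8 against 38.9 and 39.8 CPM (log2 0.052, interval -0.098 to 0.20, adjusted p = 0.514).

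Counts of the rare genes were also higher in treated SUM159. PGF went from 12 and 9 counts to 31 and 28, a CPM ratio of 2.39 (1.43 to 4.14). Its log2 fold change was 1.25 with all libraries and 1.03 without the first treated one, and no p is given for it. ESM1 went from 0 and 0 counts to 18 and 27 (1.05 and 1.28 CPM), at least 6.31-fold over the floor of 3 counts per library, and entered the test only through the treated group, so no p is given. ESM1 is also an endothelial gene, and the 7 endothelial markers summed to 25.2 to 26.0 CPM in untreated SUM159 and 41.9 to 43.0 CPM in treated cells. Of these 7, PECAM1 went from 10.9 and 11.5 to 25.5 and 27.6 CPM, CDH5 from 0 and 0 to 0.935 and 0.946 CPM, and ESAM and VWF, both below 1 CPM, were also higher in both treated libraries. ERG, at 12.7 and 12.2 untreated and 12.5 and 11.9 CPM treated, and ROBO4 overlapped between the groups, and CLDN5 was at 0 in every SUM159 library. The part of these markers in the ESM1 result was not tested.

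**Figure D4:**
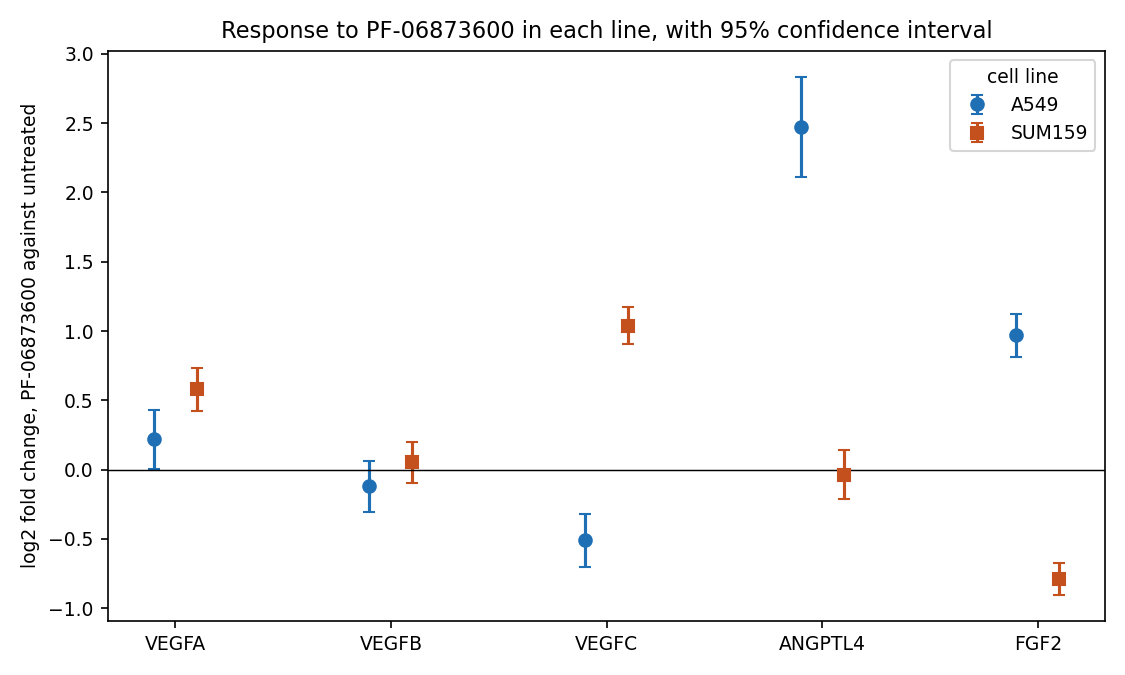
Log2 fold change with PF-06873600 against untreated cells of the same line (vertical axis) for 5 growth factors in A549 (blue circles) and SUM159 (orange squares), with 95% confidence intervals. VEGFC was -0.51 in A549 and 1.04 in SUM159, FGF2 0.97 and -0.79, and ANGPTL4 2.47 and -0.035.

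Whether the lines differed in how the growth factors responded was tested in 1 model of all 14 libraries. VEGFC responded higher in SUM159 by 1.55 on the log2 scale (SE 0.11, adjusted p = 5.20e-10) and VEGFA by 0.36 (SE 0.14, adjusted p = 0.0369). FGF2 responded lower in SUM159, at -1.75 (SE 0.092, adjusted p = 1.16e-11), as did ANGPTL4, at -2.51 (SE 0.20, adjusted p = 3.13e-09). VEGFB did not pass (0.17, adjusted p = 0.226), and its difference was 0.31 without the second untreated A549 library. So 2 members were called higher and 2 lower, where 25.8% and 27.2% of 17279 genes were. The VEGFA difference was lost without the first untreated A549 (0.23, adjusted p = 0.153), the first or second treated A549 (0.39 and 0.33, adjusted p = 0.0579 and 0.114), the first untreated SUM159 (0.23, adjusted p = 0.189), or the first or second treated SUM159 library (0.33 and 0.39, adjusted p = 0.0947 and 0.0537).

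Before any treatment 3 of the 5 members were higher in SUM159 (VEGFC, ANGPTL4 and FGF2) and 1 lower (VEGFB), where 41.9% of genes were higher and 36.8% lower. ANGPTL4 was 12.4-fold higher (log2 3.63, SE 0.15, adjusted p = 3.19e-14), FGF2 2.75-fold (log2 1.46, SE 0.067, adjusted p = 1.49e-13) and VEGFC 1.86-fold (log2 0.89, SE 0.075, adjusted p = 1.83e-09). VEGFB differed by -0.58 (SE 0.082, adjusted p = 2.99e-06), and VEGFA, at 0.017 (interval -0.19 to 0.23, adjusted p = 0.887), overlapped. The lines were kept in different media, so line and medium cannot be told apart.

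Levels of different genes were set against each other only per kilobase of transcript. With the length of the MANE reference transcript, VEGFA ranked first in untreated A549 at 35.3 ± 4.36 CPM per kb (SD, n = 2), and VEGFB at 31.4 ± 4.39 did not differ from it beyond that spread. VEGFC followed at 10.7 ± 0.0643, FGF2 at 6.55 ± 0.676, ANGPTL4 at 1.55 ± 0.0296 and PGF at 0.0391 ± 0.0552. In the A549 combination ANGPTL4, at 20.8 ± 0.766 CPM per kb, ranked behind only VEGFA (59.7 ± 3.45) and VEGFB (27.1 ± 1.17). In untreated SUM159 VEGFB (21.0 ± 0.906), VEGFC (19.8 ± 1.14), ANGPTL4 (19.2 ± 1.65) and FGF2 (18.0 ± 0.227) lay close together under VEGFA (35.7 ± 4.65). The order of VEGFA depends on the length used, since all its annotated exons together span 14431 bases against 3609 in the reference transcript. With all exons VEGFB ranked first in untreated A549, and VEGFA had rank 5 in untreated SUM159. In the A549 combination ANGPTL4 (15.8 CPM per kb) then stood above VEGFA (14.9) and behind only VEGFB (24.9).

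Genes that receive or oppose these ligands were counted next. FLT1 and KDR, the endothelial VEGF receptors, stayed below 1 CPM in every library and were too low to test. Of 13 receptors and co-receptors, 9 were tested in A549, and 4 rose and 4 fell in the combination, where 35.1% of all genes were called higher and 30.0% lower. NRP2, a co-receptor for VEGFC, rose from 62.5 to 67.5 CPM in untreated A549 to 224 to 235 CPM (log2 1.82, SE 0.063, adjusted p = 5.15e-12). FGFR4 fell by 1.66 (SE 0.10, adjusted p = 1.65e-09), and the heparan sulfate proteoglycan GPC1 rose by 1.49 (SE 0.11, adjusted p = 3.77e-08). With PF-06873600, FGFR1, a receptor of FGF2, rose in both lines, by 1.33 in A549 (SE 0.067, adjusted p = 6.26e-10) and 0.79 in SUM159 (SE 0.053, adjusted p = 4.28e-09), while NRP2 rose by 1.14 in A549 (SE 0.063, adjusted p = 1.62e-09) and fell by 0.46 in SUM159 (SE 0.068, adjusted p = 2.01e-05). Of 9 angiogenesis inhibitors, 8 were tested, and 5 rose and 0 fell in the combination (35.1% and 30.0% of all genes). The 5 include TIMP3, an inhibitor of metalloproteinases, which went from 1 and 0 counts to 190 and 226 counts. It could pass the filter on low counts only through treated groups, so its call is no support. The other 4 included ADAMTS1 (2.98, SE 0.19, adjusted p = 4.00e-09) and COL18A1, the source of endostatin (2.36, SE 0.12, adjusted p = 2.43e-10).

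Of 19 other secreted angiogenic factors, 18 were tested, and 9 rose and 4 fell in the A549 combination, where 35.1% of all genes were higher and 30.0% lower. The 9 include PDGFB, a growth factor for pericytes, which went from 4 and 1 counts to 128 and 128 counts. It could pass the filter on low counts only through treated groups, so no p is given for it. CXCL8, a chemokine of the senescent secretome, rose by 3.73 (SE 0.088, adjusted p = 1.12e-13) and adrenomedullin, ADM, by 3.44 (SE 0.11, adjusted p = 1.79e-12). In SUM159 10 rose and 6 fell with PF-06873600 (median 0.91 against 0.020 for all genes), where 38.1% of all genes were higher and 35.6% lower. There CXCL8 rose by 4.19 (SE 0.069, adjusted p = 1.84e-15), FGF1 by 2.16 (SE 0.23, adjusted p = 6.90e-07) and ADM by 2.00 (SE 0.069, adjusted p = 3.19e-12).

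ANGPTL4 and VEGFA are known hypoxia response genes, and 10 others were set beside them. The part of oxygen sensing in the ANGPTL4 and VEGFA changes was not tested. In the A549 combination 8 of the 10 rose and 0 fell, where 35.1% of all genes were called higher and 30.0% lower, with a median log2 fold change of 0.58. The glycolysis regulator PFKFB4 rose from 1.80 to 1.90 CPM in untreated cells to 25.9 to 29.6 CPM (log2 3.90, SE 0.15, adjusted p = 2.25e-11), and SLC2A1, the glucose transporter GLUT1, from 144 to 151 CPM to 484 to 486 CPM (log2 1.72, SE 0.055, adjusted p = 2.56e-12). Relative to the sum of the single drugs, 8 of 10 were again higher and 0 lower, where 10.7% of all genes were called higher and 14.5% lower, with PFKFB4 at 2.51 (SE 0.28, adjusted p = 1.30e-05) and NDRG1 at 1.22 (SE 0.081, adjusted p = 7.78e-08). With PF-06873600, 6 rose and 2 fell in A549 (median 0.32; 28.5% and 27.8% of all genes), and 2 rose and 4 fell in SUM159 (median -0.21; 38.1% and 35.6% of all genes). The 2 that rose in SUM159 were PFKFB4, by 1.38 (SE 0.12, adjusted p = 7.28e-08), and P4HA1, by 1.17 (SE 0.056, adjusted p = 1.09e-10). SLC2A1 rose by 1.21 in A549 (SE 0.055, adjusted p = 2.33e-10) and fell by 0.89 in SUM159 (SE 0.058, adjusted p = 3.01e-09). Among 8 genes of the oxygen sensor, EPAS1, which encodes HIF-2 alpha, rose by 2.12 in the combination (SE 0.058, adjusted p = 5.18e-13), EGLN2, a prolyl hydroxylase that marks HIF for degradation, rose by 1.07 (SE 0.25, adjusted p = 0.00193) and VHL fell by 0.66 (SE 0.070, adjusted p = 1.15e-06), with 4 higher and 1 lower in all (35.1% and 30.0% of all genes).

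**Figure D5:**
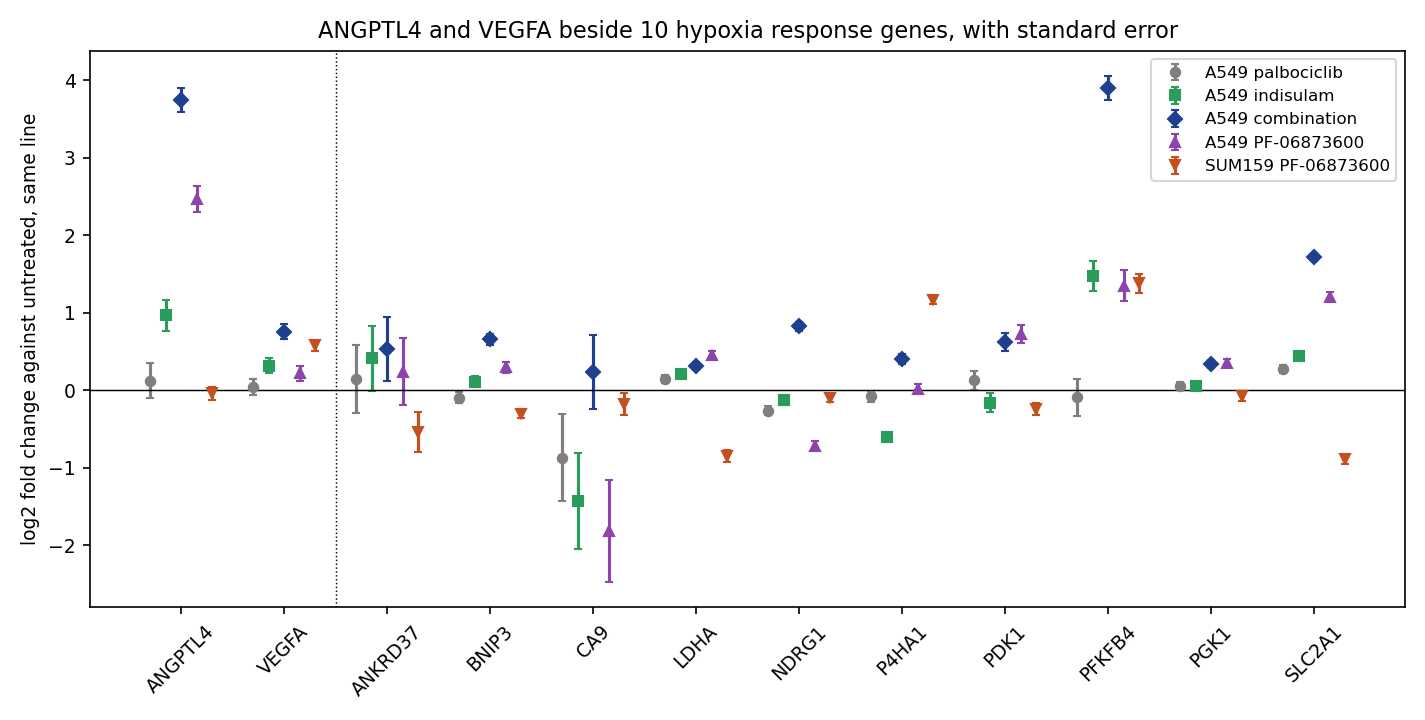
Log2 fold change against untreated cells of the same line (vertical axis) for ANGPTL4 and VEGFA, left of the dotted line, and all 10 other hypoxia response genes of the list, with bars of 1 SE. In the A549 combination (dark diamonds) 8 of the 10 rose, PFKFB4 by 3.90, while SLC2A1 fell by 0.89 in SUM159 (orange triangles).

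PPAR genes, which include the fatty acid sensors that induce ANGPTL4, were counted apart. Of 8 genes 6 were tested in A549, and 1 rose and 3 fell in the combination (median -0.71), where 35.1% of all genes were higher and 30.0% lower. The lipid droplet gene PLIN2 rose by 1.77 (SE 0.071, adjusted p = 2.75e-11), while PDK4 fell by 1.86 (SE 0.063, adjusted p = 3.88e-12) and CPT1A by 1.23 (SE 0.065, adjusted p = 5.05e-10). With PF-06873600 in A549, 1 rose and 4 fell (median -0.51), where 28.5% of all genes were higher and 27.8% lower. There PLIN2 rose by 1.33 (SE 0.073, adjusted p = 1.47e-09). The receptor gene PPARA fell by 1.35 (SE 0.10, adjusted p = 3.99e-08) and CPT1A by 1.17 (SE 0.065, adjusted p = 1.70e-09). In SUM159 6 of 7 tested rose and 1 fell with PF-06873600 (38.1% and 35.6% of all genes). Some of the 6 were low there, with means of 0.310 and 1.33 CPM for PLIN2 (untreated and treated). The means were 1.02 and 1.73 CPM for PDK4 and 0.921 and 5.26 CPM for FABP4. PLIN2 could pass the filter on low counts in SUM159 only through the treated group, so its call there is no support. The part of PPAR receptors in the ANGPTL4 changes was not tested.

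The genes whose pattern was most like each member were found over all 14 libraries among 12755 genes, as Pearson's r of log2 CPM after subtracting the untreated mean of the line. This r describes points that share libraries and treatments. VEGFA was most like HOOK2 (r = 0.963) and SPRED3 (0.960), VEGFC like UNC13A (0.994) and MCF2L (0.992), and FGF2 like HSPA4 (0.989) and BZW1 (0.987). ANGPTL4 was most like MYH9 (0.989) and TP53I3 (0.987). VEGFB had weaker partners, PTPRU (0.864) and BLVRB (0.849). PGF was most like BOC (0.959) and MEX3A (0.954), and ESM1 like ENSG00000255491 (0.980) and SH3BP5L (0.979), both resting on few counts of the member.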

How the data were processed

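Total RNA of the 14 libraries was sequenced by the authors after a stranded mRNA preparation and aligned to hg38. The submitters' processing notes name HISAT2 2.2.1 and HTSeq. The annotation release and the strand setting of the counting are not given in the sources used here. The deposited values are raw read counts per Ensembl gene, 1 table per library, and 60370 of 60683 identifiers had a symbol in GENCODE release 44. Counts were tested with edgeR 4.0.16 in R 4.3.3 (quasi-likelihood test, filterByExpr, scaling by total counts on genes) in models of 10 A549 libraries (15780 genes), 4 SUM159 libraries (15055 genes) and all 14 (17279 genes), with Benjamini-Hochberg adjustment over all genes and a threshold of 0.05. On simulated counts with 1 spread for all genes, the script called most of the large changes it was given. Genes with few counts, such as PGF and ESM1, were given none, and recovery of small changes was not required. DESeq2 1.42.0, TMM factors, other filters, only the compared groups, a replicate block and each library left out were alternatives.

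Members are defined by gene symbol alone, but they and the gene lists were chosen with earlier results of these data known. All 7 members are named. Of each other list, the text names at most the 3 called genes with the largest change whose level averaged 5 CPM or more in either group compared, and for each member the 2 genes most like it. Duplicate libraries differed by more than sampling noise (chi-square per degree of freedom 1.66 to 10.5), and all were kept. With 2 libraries per group an exact two-sided permutation test cannot go below 0.33.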

Additional observations from a re-analysis of the deposited data

Results flagged for a closer look

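The members below responded differently to PF-06873600 in the 2 lines, by a test of the difference itself (edgeR, all 14 libraries). VEGFC differed by 1.55 on the log2 scale, SUM159 minus A549, and rose in SUM159 while it fell in A549. FGF2 differed by -1.75 and ANGPTL4 by -2.51. The VEGFA difference of 0.36 was near the threshold (adjusted p = 0.0369) and was lost without 6 of the 8 libraries of the comparison, each left out alone. Groups of 2 are too small for an outlier test, so none was run.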

How the results depend on the processing

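The called changes of ANGPTL4 and FGF2 with indisulam, the combination and PF-06873600, of VEGFC with PF-06873600 in both lines, and of VEGFA in the combination and in SUM159 kept direction and call under every alternative run. ANGPTL4 ranged from 3.66 to 3.79 (log2) in the combination and from 2.41 to 2.54 with PF-06873600 in A549.

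Counts of members called, over the 5 used above, moved by more than 1.5 times as follows. The shares of all genes given above are those of the main setting. With only the compared groups, palbociclib went from 1 higher and 1 lower to 0 and 0, and the combination from 2 lower to 1. The filter at a mean of at least 50 counts removes PGF and ESM1. It left 3 of the 5 higher in the combination against untreated and against palbociclib, and 2 in SUM159, as before. Under the same filter VEGFA left the interaction (adjusted p from 0.0492 to 0.0505, 2 to 1 higher) and VEGFC passed as lower against indisulam (from 0.0515 to 0.0420, 0 to 1). Leaving out 1 library, which leaves its group with 1 that is assumed to vary like the others, gave 0 to 1 higher and 0 to 1 lower for palbociclib, 0 to 1 lower for indisulam, 1 to 2 lower for the combination and 0 to 1 lower against palbociclib. It gave 1 to 3 higher for the interaction, 1 to 2 lower for PF-06873600 in A549 and 1 to 3 higher for the difference between the lines. Smaller moves included VEGFA, which was not called with indisulam under TMM or DESeq2 (adjusted p = 0.0565 and 0.0519). With PF-06873600 in A549 VEGFA was called higher with DESeq2 and without the filter on low counts (adjusted p = 0.0464 and 0.00691).

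Of the values that changed sign, VEGFB with indisulam and with PF-06873600 passed the test as lower without the second untreated library (adjusted p = 0.0258 and 0.00633), and the others did not pass. Leaving out 1 library, VEGFA with palbociclib ranged from -0.11 to 0.18 with -0.074 between, ANGPTL4 with palbociclib from -0.25 to 0.47, VEGFB with indisulam from -0.21 to 0.073 and with PF-06873600 from -0.26 to 0.028, PGF in the combination against indisulam from -0.20 to 0.031, ANGPTL4 in SUM159 from -0.12 to 0.057 with 0.042 between, and VEGFA between untreated lines from -0.12 to 0.15 with -0.10 between. The last was -0.090 with TMM and -0.072 with DESeq2. The cause was not tested.

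The labels number libraries 1 and 2 in every group without tying numbers to a shared culture. Same-numbered deviations correlated at -0.26 between palbociclib and untreated libraries and at 0.26 between indisulam and untreated libraries. The replicate block moved the interaction from 2 members higher to 1 (VEGFA, adjusted p = 0.0622) and changed no other call of a member. Crossing the palbociclib numbers, chosen after the data were seen, changed none of 6 member values tested. At 3 counts, PGF and ESM1 were limited by depth in untreated A549.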
